A study of Mus musculus with 6 samples.

Results

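The genes described here are 40 genes of the cell division cycle, picked by symbol and split by the phase in which their products act. The S-phase group holds 15 genes of DNA replication and the G2/M group 25 genes of chromosome segregation and cell division. All 40 symbols were found among the 38926 gene symbols of the deposited tables. Each member also had enough reads to be tested, with between 31 and 7098 reads per library. Rrm1, which the grouping rule leaves unassigned, was kept with the S-phase genes beside its partner Rrm2, and Ccna2, whose protein is made from S phase onward, was kept with the G2/M genes.

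A dividing cell copies its DNA in S phase with the minichromosome maintenance (MCM) helicase, a sliding clamp and a supply of deoxynucleotides, and then condenses and segregates its chromosomes on a spindle of microtubules. The replication genes are switched on by E2F transcription factors as cells leave G1, while the mitotic genes are switched on later, through promoter elements named CHR and CCAAT, by complexes that include B-MYB, FOXM1 and NF-Y. Sensory neurons of the dorsal root ganglion, the cluster of cell bodies beside the spinal cord, do not divide in the adult. Glia, vessel cells and blood-forming or immune cells can. Vincristine is a chemotherapy drug that binds tubulin and stops microtubule assembly, so that dividing cells exposed to it are held in mitosis.

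RNA came from ganglia of lumbar levels 3, 4 and 5 on the side of the treated paw of wild-type female C57BL/6 mice aged 8 to 10 weeks. The 3 vehicle pools and the 3 vincristine pools each joined the tissue of 4 animals, and the labels count each pool as a biological replicate. The drug was given into the paw, to a cumulative 40 µg per the labels, although 10 µg stands in the names of the tables, and no source used here resolves this. The sources used here do not state the time from the last dose to the removal of tissue. Reads in genes ran from 12374331 in vincristine replicate 1 to 26346304 in vincristine replicate 3, and the vehicle libraries had between 17967934 and 19917055. Sensory neuron markers were present in every library, with a summed level of 9772 to 12518 CPM, the reads of a gene scaled to a fixed library total, in the vehicle pools. Vincristine replicate 1 stood apart from the other libraries on the first principal component, which held 56.4% of the variance. Its neuron markers summed to 4369 CPM. The read counter assigned 24.8% of the tallied alignments of that library to no feature, against 14.8% to 17.0% in the other libraries. The part of these differences in the results was not tested, and the main results below are given with and without that library.

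The comparison of vincristine with vehicle is the only one of the study, and it was read here for whether replication and mitotic genes differed alike. Most G2/M genes were higher in each vincristine library, while the S-phase genes, Cdc45 apart, were above the vehicle range in vincristine replicate 1 only. The median log2 fold change was 1.08 over the 25 G2/M genes and 0.41 over the 15 S-phase genes, against -0.00334 over all 16706 genes tested. All 40 members had a log2 fold change above 0, as 49.3% of all genes did. With vincristine replicate 1 left out, the G2/M median was 0.52 and the S-phase median -0.01. Of the members, 24 of 25 G2/M genes and 7 of 15 S-phase genes were then above 0, beside 49.9% of all genes. With and without that library, 24 of 25 G2/M genes lay above the S-phase median, the exception being Mad2l1.

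No member passed the threshold over all genes in edgeR's quasi-likelihood test, at an adjusted p under 0.05 (0 of 40 in either direction, where 0.293% of the genes tested were called higher, 0.0658% lower and 0.359% in all). At an unadjusted p under 0.05, edgeR had 19 G2/M genes and 1 S-phase gene higher and none lower, beside 8.1% of all genes higher and 3.27% lower. DESeq2, which was run as an alternative, called 6 G2/M genes higher and 0 S-phase genes, beside 2.44% of all genes higher and 0.402% lower. These 6 were Mki67, Ube2c, Cenpe, Cenpf, Nusap1 and Prc1. The groups did not overlap, with each vincristine library above each vehicle library, for 18 of 25 G2/M genes and 1 of 15 S-phase genes, where 11.5% of all genes were apart in that direction. In the other direction 0 members were apart, where 9.51% of all genes were. Vincristine replicates 2 and 3 were both above every vehicle library for 19 members, beside 17.7% of all genes. When vincristine replicate 1 was left out, edgeR called 1 G2/M gene higher, Ube2c, and 0 members lower, where 1.79% and 0.255% of all genes were called. The unadjusted edgeR p was then under 0.05 for 13 members, all G2/M genes and all higher, beside 8.78% of all genes higher and 4.25% lower. DESeq2 then called 6 members higher and 0 lower, beside 2.7% and 0.593% of all genes. With the replicate number as a block, edgeR called 1 member higher, Ube2c, and 0 lower, beside 1.38% and 0.186% of all genes. In ganglia measured whole, more dividing cells and more of these transcripts per cell cannot be told apart.

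**Figure D1:**
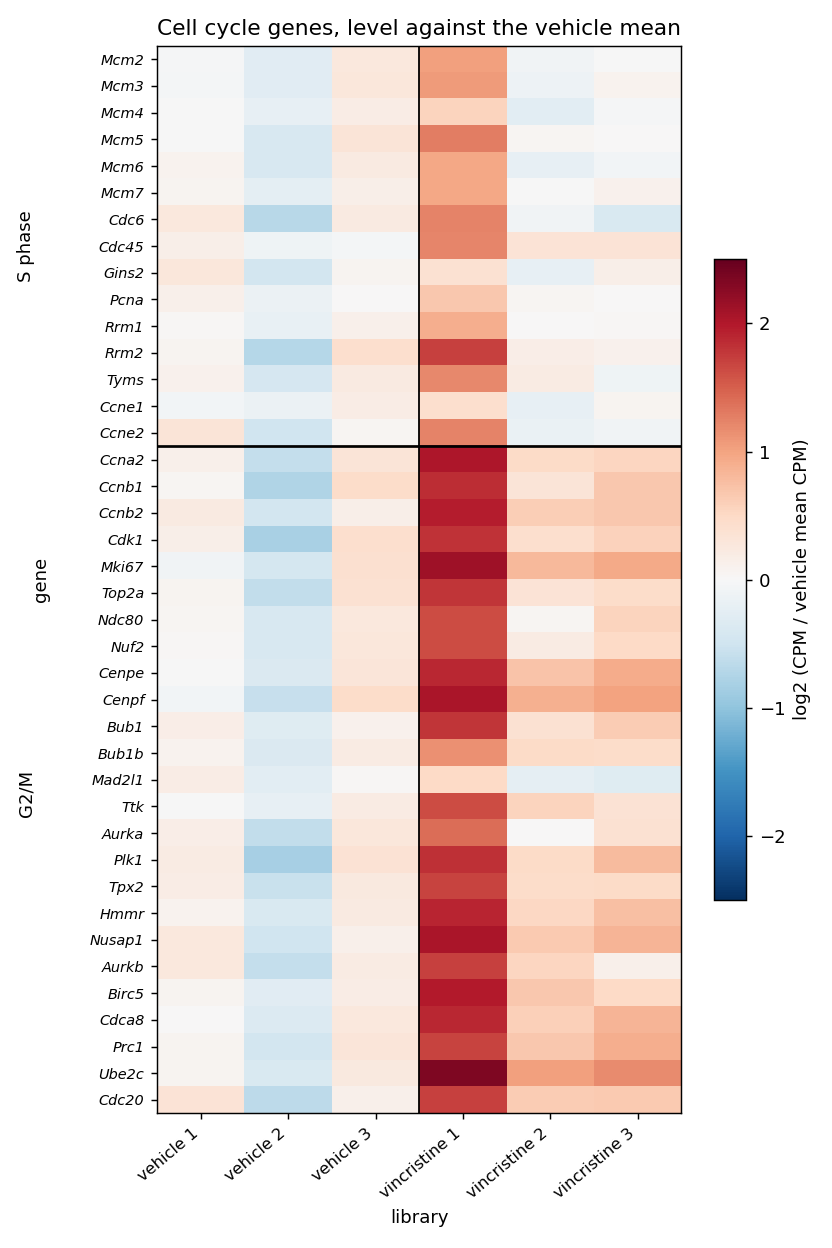
Level of each member gene (rows, grouped by phase and role) in each of the 6 libraries (columns), as log2 of CPM over the mean CPM of the 3 vehicle libraries. Vincristine replicate 1 is red for both phases, while vincristine replicates 2 and 3 are red for most G2/M genes and near white for most S-phase genes.

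The promoters of the groups were compared as well, since the grouping did not use sequence. RefSeq promoters of build GRCm38.p6, from 250 bases before to 50 bases after the annotated start, were given for 12 of 15 S-phase and 22 of 25 G2/M genes. Searched on both strands, the CHR letters TTTGAA were in 15 of the 22 G2/M promoters (68.2%), in 2 of the 12 S-phase promoters (16.7%) and in 18.1% of the 27025 promoters in the table. The pentamer CCAAT was in 77.3% of the G2/M and 75% of the S-phase promoters, against 37.9% of all. The E2F core, TTGGCGC or TTCGCGC, was in 4 of the 12 S-phase promoters (33.3%) and 4 of the 22 G2/M promoters (18.2%), against 3.98% of all. None of these motifs contains another, although CCAAT can share bases with the E2F core or with the CHR letters. In the wider lists, the CHR letters were in 64.3% of 42 promoters of other mitotic genes and 21.4% of 28 of other replication genes, CCAAT in 69.0% and 53.6%, and the E2F core in 11.9% and 25%. A match describes the letters only and says nothing of whether a factor was bound. Among G2/M genes, the median log2 fold change was 1.14 for the 15 with the CHR letters and 1.08 for the 7 without.

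The 120 bases before the start are shown for 7 members, 5' to 3' on the strand of the gene, with CHR, CCAAT and E2F matches on either strand in capitals. Ube2c (chr2:164769809-164769928, plus strand), Top2a (chr11:99024190-99024309, minus strand), Cdk1 (chr10:69352913-69353032, minus strand) and Mki67 (chr7:135716380-135716499, minus strand) are G2/M genes with the CHR letters. Mad2l1 (chr6:66535101-66535220, plus strand) is shown because it is the G2/M gene with the smallest difference, and has none of the motifs in this window. Mcm6 (chr1:128359706-128359825, minus strand) shows E2F matches that overlap each other in a pair of blocks, and Pcna (chr2:132253181-132253300, minus strand) shows an S-phase promoter with CCAAT alone.
Ube2c: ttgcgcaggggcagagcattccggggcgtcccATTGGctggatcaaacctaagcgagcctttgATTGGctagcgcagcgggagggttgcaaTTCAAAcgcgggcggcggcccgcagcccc
Top2a: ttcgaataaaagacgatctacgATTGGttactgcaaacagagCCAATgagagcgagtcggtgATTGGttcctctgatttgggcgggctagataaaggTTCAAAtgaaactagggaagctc
Cdk1: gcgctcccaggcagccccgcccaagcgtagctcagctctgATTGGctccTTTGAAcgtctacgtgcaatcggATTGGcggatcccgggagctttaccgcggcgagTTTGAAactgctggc
Mki67: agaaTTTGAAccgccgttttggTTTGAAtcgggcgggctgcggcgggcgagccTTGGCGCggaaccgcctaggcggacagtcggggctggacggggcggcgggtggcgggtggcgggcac
Mad2l1: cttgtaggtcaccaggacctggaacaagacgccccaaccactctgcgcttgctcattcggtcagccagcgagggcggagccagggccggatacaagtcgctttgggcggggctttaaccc
Mcm6: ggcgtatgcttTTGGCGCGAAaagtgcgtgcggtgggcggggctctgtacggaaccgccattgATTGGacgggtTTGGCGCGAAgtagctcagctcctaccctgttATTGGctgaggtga
Pcna: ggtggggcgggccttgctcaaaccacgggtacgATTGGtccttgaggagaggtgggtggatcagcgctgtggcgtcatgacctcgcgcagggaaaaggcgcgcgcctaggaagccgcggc

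Among the S-phase genes, the 6 MCM subunits, which form the ring of the replicative helicase, had log2 fold changes from 0.12 (Mcm4) to 0.56 (Mcm5). Mcm5 was at 15.0, 11.5 and 18.9 CPM in vehicle replicates 1, 2 and 3, and at 36.6, 15.7 and 15.2 CPM in vincristine replicates 1, 2 and 3. Its group means were 15.1 ± 3.72 and 22.5 ± 12.2 CPM (SD, n = 3 each), and they differed by 0.56 ± 0.37 on the log2 scale (SE; edgeR adjusted p = 0.615). Vincristine replicate 1 was high and the other vincristine libraries lay inside the vehicle range. The same held for Mcm2, at 17.3, 14.6 and 21.2 CPM in vehicle and at 36.2, 16.7 and 17.6 CPM in vincristine. With vincristine replicate 1 left out, the 6 subunits had log2 fold changes between -0.15 and 0.05, and 2 of 6 were above 0. Exons of Mcm7, Cdc45, Gins2 and Ccne2 overlap genes on the other strand, and no source used here states whether reads were counted by strand.

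Pcna, the sliding clamp of the replicative polymerases, was at 24.6, 20.4 and 22.7 CPM in the vehicle libraries and at 36.2, 23.4 and 22.6 CPM in the vincristine libraries. Per length it was the most abundant S-phase transcript in vehicle, at 9.40 ± 0.869 RPKM (CPM per kilobase of exon; SD, n = 3), followed by Mcm4 at 7.38 ± 1.02 RPKM. Its log2 fold change was 0.27 ± 0.20 (SE), and 0.03 ± 0.11 without vincristine replicate 1.

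Of the nucleotide supply genes, Rrm2, the regulated subunit of ribonucleotide reductase, had the largest S-phase difference. It was at 16.9, 9.74 and 21.4 CPM in vehicle and at 52.2, 17.9 and 17.3 CPM in vincristine, so that only vincristine replicate 1 left the vehicle range. The log2 fold change was 0.85 ± 0.49 (SE; edgeR adjusted p = 0.567) with all libraries and 0.13 ± 0.28 without vincristine replicate 1. Rrm1, the large subunit, and Tyms, which makes thymidylate, had log2 fold changes of 0.37 and 0.52 with all libraries, and 0.02 and 0.05 without that library.

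Cdc45, which joins the MCM ring to make the active helicase, was the S-phase gene whose groups did not overlap. It was at 5.38, 4.48 and 4.70 CPM in vehicle and at 11.3, 6.16 and 6.17 CPM in vincristine. The difference was 0.68 ± 0.27 on the log2 scale (SE; unadjusted p = 0.0393, edgeR adjusted p = 0.405), and 0.35 ± 0.16 without vincristine replicate 1. Gins2, its partner in that complex, and Cdc6, which loads the helicase, overlapped between groups. Cdc6 was at 7.67, 3.96 and 7.45 CPM in vehicle and at 15.1, 6.00 and 4.89 CPM in vincristine, and its log2 fold change went from 0.42 to -0.23 without vincristine replicate 1. Gins2 was at 4.14 ± 1.03 and 4.54 ± 0.910 CPM (SD, n = 3 each), with a log2 fold change of 0.13 ± 0.26 (SE). The E-type cyclins, which drive entry into S phase with CDK2, had log2 fold changes of 0.11 ± 0.19 for Ccne1 and 0.47 ± 0.41 for Ccne2 (SE), and -0.06 and -0.12 without vincristine replicate 1.

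**Figure D2:**
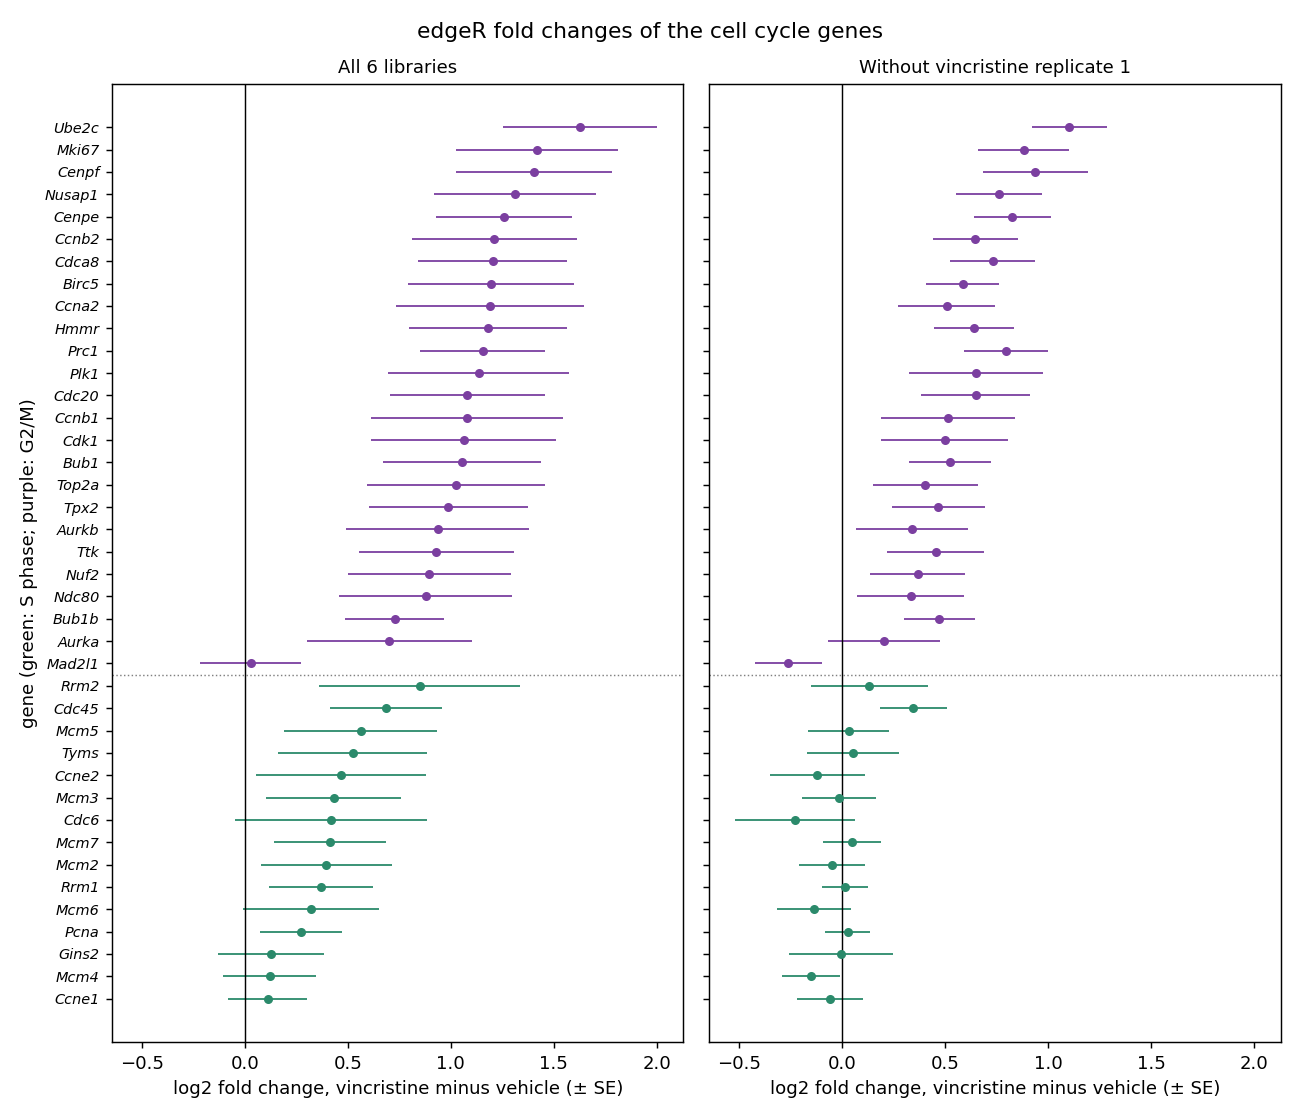
Log2 fold change of vincristine minus vehicle (horizontal axis, points with SE from edgeR) for each member, S-phase genes in green and G2/M genes in purple, with all 6 libraries on the left and without vincristine replicate 1 on the right. The S-phase median moves from 0.41 to -0.01 between the panels, and the G2/M median from 1.08 to 0.52.

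Of the kinase that drives mitosis and its cyclins, 3 of 4 genes were higher in each vincristine library than in any vehicle library, beside 11.5% of all genes. Ccnb2, a B-type cyclin, was at 7.62, 4.74 and 7.30 CPM in vehicle and at 25.5, 10.1 and 10.4 CPM in vincristine, with no overlap. Its log2 fold change was 1.21 ± 0.40 (SE; edgeR adjusted p = 0.327, DESeq2 adjusted p = 0.0749). Cdk1, the mitotic kinase itself, was at 8.63, 4.43 and 10.4 CPM in vehicle and at 27.4, 10.4 and 11.6 CPM in vincristine. Its lowest vincristine library lay just above its highest vehicle library, both at 10.4 CPM when rounded. Ccna2 (log2 1.19 ± 0.46, SE) was also apart, whereas Ccnb1 (1.08 ± 0.47) overlapped, its vincristine replicate 2, at 3.86 CPM, lying below vehicle replicate 3. Vincristine replicate 1 left out, these 4 genes had log2 fold changes of 0.50 to 0.65.

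Mki67, which encodes the Ki-67 coat protein of mitotic chromosomes and is used to mark dividing cells, was the most abundant member per length in vehicle. It was at 119, 93.2 and 168 CPM in vehicle and at 549.5, 223 and 245 CPM in vincristine, so that every vincristine library was above every vehicle library. Per length it was at 12.6 ± 3.80 RPKM in vehicle and 33.7 RPKM on average in vincristine. The log2 fold change was 1.42 ± 0.39 (SE; edgeR adjusted p = 0.240, DESeq2 adjusted p = 0.0114). Without vincristine replicate 1 it was 0.88 ± 0.22 (edgeR adjusted p = 0.123, DESeq2 adjusted p = 0.00308). The gene spans chromosome 7 from 135689784 to 135716361 on GRCm38. Top2a, the topoisomerase that untangles sister chromatids, was at 51.8, 32.5 and 64.9 CPM in vehicle and at 173, 63.1 and 68.6 CPM in vincristine. Its groups overlapped, and its log2 fold change went from 1.03 to 0.41 without vincristine replicate 1.

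Among the 4 kinetochore genes, 2 were apart between groups with vincristine higher, beside 11.5% of all genes. Cenpf, a large protein of the outer kinetochore, was at 16.7, 11.8 and 24.0 CPM in vehicle and at 72.5, 32.2 and 35.0 CPM in vincristine. Cenpe, a motor that carries chromosomes to the spindle equator, was at 13.1, 10.3 and 16.2 CPM in vehicle and at 48.6, 21.6 and 25.3 CPM in vincristine. Neither gene overlapped between groups. Their log2 fold changes were 1.40 ± 0.38 and 1.26 ± 0.33 (SE; edgeR adjusted p = 0.231 and 0.220, DESeq2 adjusted p = 0.0123 and 0.0136). Ndc80 and Nuf2, partners in the complex that grips microtubule ends, had 0.88 ± 0.42 and 0.90 ± 0.40 and overlapped between groups. With vincristine replicate 1 left out, Cenpf was at 0.94 and Cenpe at 0.83 (log2), while Ndc80 was at 0.33 and Nuf2 at 0.37.

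The spindle checkpoint holds cells in mitosis until each chromosome is attached, and it is the pathway through which a spindle poison arrests them. Bub1b (BubR1) was at 12.5, 9.07 and 13.5 CPM in vehicle and at 25.9, 16.4 and 16.1 CPM in vincristine, which is 0.73 ± 0.24 higher on the log2 scale (SE; edgeR adjusted p = 0.324). Bub1 (1.05 ± 0.38) and Ttk, the kinase MPS1 (0.93 ± 0.37), were likewise apart between groups, Ttk at no more than 75 reads in any library. Mad2l1, which encodes the MAD2 protein that blocks CDC20, overlapped between groups. It was at 12.5, 9.17 and 11.2 CPM in vehicle and at 15.6, 9.45 and 8.90 CPM in vincristine, so that the difference on the log2 scale was 0.03 ± 0.25 (SE; edgeR adjusted p = 0.976). Without vincristine replicate 1 it was at -0.26 ± 0.16, the lowest value of any member.

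The anaphase-promoting complex is the ligase that ends mitosis, and Ube2c and Cdc20 work with it. Ube2c, its ubiquitin-conjugating enzyme, had the largest fold change of the 40 members. It was at 8.74, 6.36 and 9.80 CPM in vehicle and at 41.9, 16.9 and 18.8 CPM in vincristine. All vincristine libraries lay above the vehicle libraries. The log2 fold change was 1.63 ± 0.37 (SE; edgeR adjusted p = 0.187, DESeq2 adjusted p = 0.00150). Without vincristine replicate 1 it was 1.10 ± 0.18 and passed in edgeR (adjusted p = 0.0277). An exon of Ube2c, on chromosome 2 from 164769898 to 164778822, overlaps the muscle troponin gene Tnnc2 on the other strand. Tnnc2 was at 2.91, 5.21 and 23.1 CPM in vehicle and at 10.1, 41.6 and 8.98 CPM in vincristine. Its log2 fold change was 0.95 (edgeR adjusted p = 0.711). Tnnc2 was highest in vincristine replicate 2 and Ube2c in vincristine replicate 1. The part of the overlap in the Ube2c difference was not tested. Cdc20, the activator that MAD2 blocks, was at 6.55, 3.28 and 5.65 CPM in vehicle and at 16.9, 8.04 and 8.13 CPM in vincristine (log2 1.08 ± 0.38, SE).

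Genes of spindle assembly and of the spindle midzone, where the cell is cut apart, were mostly apart between groups, beside 11.5% of all genes higher. Prc1, which bundles midzone microtubules, was at 14.1, 9.85 and 16.6 CPM in vehicle and at 43.7, 21.7 and 25.3 CPM in vincristine. Nusap1, a microtubule-binding protein of the spindle, was at 14.1, 8.34 and 12.9 CPM in vehicle and at 48.5, 18.5 and 21.4 CPM in vincristine. Their log2 fold changes were 1.15 ± 0.30 and 1.31 ± 0.39 (SE; edgeR adjusted p = 0.224 and 0.278, DESeq2 adjusted p = 0.0181 and 0.0337). Without vincristine replicate 1 they were 0.80 and 0.76 (DESeq2 adjusted p = 0.0206 and 0.0422). In the chromosomal passenger complex, Birc5 (survivin) and Cdca8 (borealin) were apart, at log2 fold changes of 1.19 and 1.20, while their kinase Aurkb, at 0.94, was not. Of the remaining spindle genes, Hmmr, Plk1 and Tpx2 were apart, at 1.18, 1.14 and 0.99. Aurka, the spindle pole kinase that TPX2 activates, was at 6.61, 3.86 and 7.20 CPM in vehicle and at 15.6, 5.90 and 7.63 CPM in vincristine, and overlapped. Among the G2/M genes, 7 have an exon that overlaps a gene on the other strand: Ccna2, Ube2c, Plk1, Cdc20, Nusap1, Prc1 and Cdca8. Leaving out these and the 4 S-phase genes of this kind gave medians of 1.04 for G2/M and 0.40 for S phase.

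**Figure D3:**
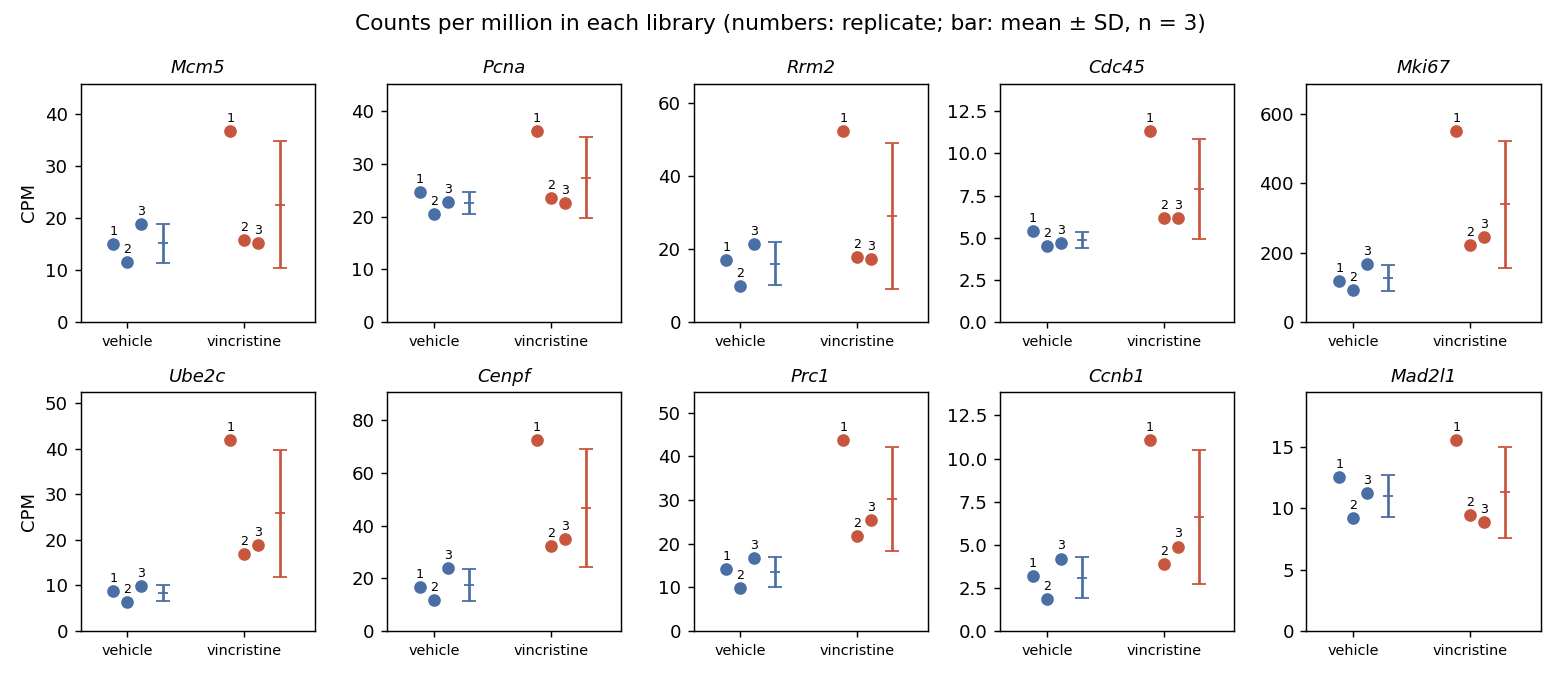
CPM of 10 members in each library (points numbered by replicate, with mean ± SD, n = 3, beside them; each axis starts at 0). Vincristine replicates 2 and 3 lie within the vehicle range for Mcm5, Pcna and Rrm2 and above it for Cdc45, Mki67, Ube2c, Cenpf and Prc1; Ccnb1 and Mad2l1 overlap.

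The balance of the phases within a library needs no scaling between libraries. Reads in G2/M genes made up 60.4%, 57.8% and 63.1% of the reads in all 40 members in vehicle replicates 1, 2 and 3, and 74.7%, 71.3% and 72.2% in vincristine replicates 1, 2 and 3. The highest vehicle library had an exact Clopper-Pearson 95% interval of 62.4% to 63.9%, and the lowest vincristine library of 70.5% to 72.0%; these intervals cover counting error only. The group means were 60.5% ± 2.67 and 72.7% ± 1.75 (SD, n = 3 each), and every vincristine library was above every vehicle library. The group difference was 12.3 percentage points with all libraries and 11.3 without vincristine replicate 1. Mki67 alone held 32.1% to 40.1% of the G2/M reads. With Mki67 left out, an alternative added after the data were seen, the means were 49.9% ± 2.76 and 61.5% ± 2.06 (SD, n = 3 each), and the groups were again apart.

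**Figure D4:**
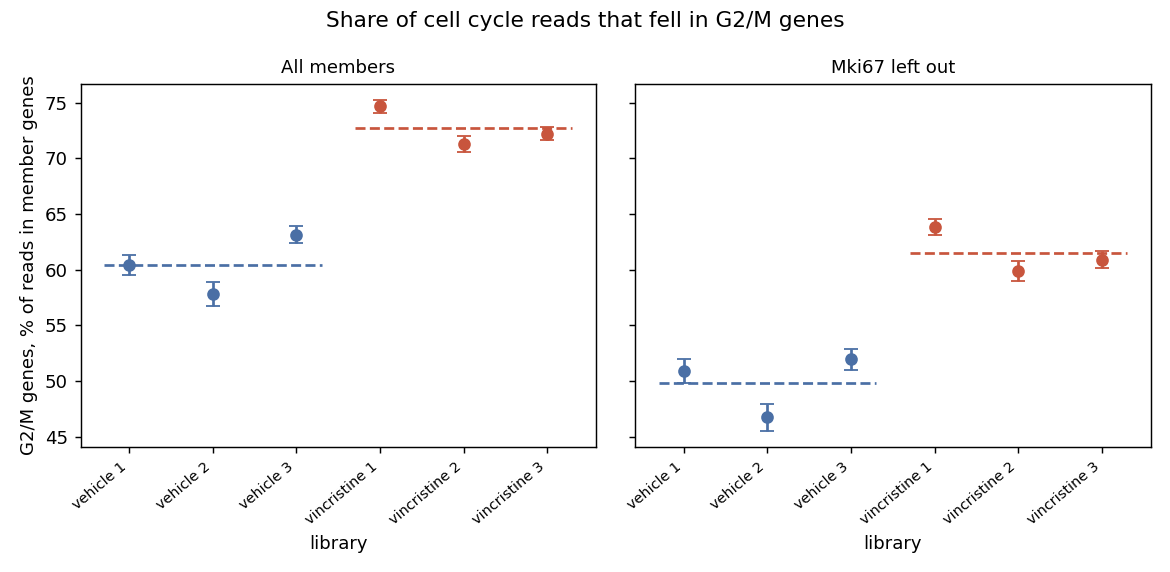
Share of the reads in the 40 member genes that fell in G2/M genes (percent, vertical axis) in each library, with exact 95% intervals for counting error and dashed group means. The vincristine libraries lie between 71.3% and 74.7% and the vehicle libraries between 57.8% and 63.1% with all members, and the groups are also apart when Mki67 is left out.

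A value per gene gave the same order. The median G2/M gene, as log2 CPM against its vehicle mean, was at 0.12, -0.42 and 0.29 in the vehicle libraries and at 1.87, 0.55 and 0.65 in the vincristine libraries. The median S-phase gene was at 0.11, -0.26 and 0.20 in vehicle and at 1.04, -0.02 and 0.03 in vincristine. The G2/M median minus the S-phase median was then between -0.16 and 0.09 in vehicle, and 0.83, 0.57 and 0.63 in vincristine replicates 1, 2 and 3. In vincristine replicate 1 both medians were above the vehicle range, and in replicates 2 and 3 only the G2/M median was. No p is given for these summaries, since members share libraries and are not replicates.

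Other genes of the cycle were read from lists that hold no member. In the list of 37 other replication genes edgeR and DESeq2 called 0, beside 0.293% and 2.44% of all genes higher and 0.0658% and 0.402% lower. The unadjusted edgeR p was under 0.05 for 1 higher gene, Dbf4, and 1 lower gene, Dut, beside 8.1% and 3.27% of all genes. The median log2 fold change was 0.26, and 0.00325 without vincristine replicate 1. Dbf4, which activates the CDC7 kinase at origins, had 0.96 ± 0.39, Tk1, the thymidine kinase, 0.94 ± 0.41, and Dut, which clears dUTP, -0.25 ± 0.11 (SE). Of 51 other mitotic genes, edgeR called 1 higher and 0 lower and DESeq2 called 2 higher, beside 0.293%, 0.0658% and 2.44% of all genes. An unadjusted edgeR p under 0.05 was seen for 25, each with a higher level in vincristine, beside 8.1% of all genes. The median over the 51 genes was 0.87, and 0.37 without vincristine replicate 1. The called gene was Kif22, a kinesin that pushes chromosome arms along the spindle. It was at 6.83, 5.37 and 6.85 CPM in vehicle and rose to 22.9, 14.1 and 17.4 CPM in vincristine (log2 1.51 ± 0.21, SE; edgeR adjusted p = 0.0485, and 0.00933 without vincristine replicate 1). With any other 1 library left out, or with other scalings, Kif22 did not pass, and its edgeR adjusted p ran from 0.00933 to 0.299 over the libraries left out. A gene on the other strand overlaps Kif22. Cdca3 and Espl1 (separase, which cuts cohesin at anaphase) had log2 fold changes of 1.35 and 1.04 and did not pass in edgeR.

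In the list of G1 cyclins, kinases and inhibitors edgeR called 0 of 21 genes and DESeq2 1 higher, beside 2.44% of all genes higher by DESeq2. By unadjusted edgeR p under 0.05, 3 were higher, beside 8.1% of all genes, and the median log2 fold change was 0.25. Cdkn1a, the CDK inhibitor p21 induced by p53 and by nerve injury, was at 42.1, 39.0 and 33.4 CPM in vehicle and at 55.1, 68.1 and 80.3 CPM in vincristine. Among the vincristine libraries it was lowest in replicate 1, where the G2/M genes were highest, and passed in edgeR only without that library (log2 0.83 ± 0.16, edgeR adjusted p = 0.126; 0.96 ± 0.12 and adjusted p = 0.00933 without it). Btg2, an antiproliferative gene, had 0.79 ± 0.25 and Rb1, the retinoblastoma protein that restrains E2F, 0.32 ± 0.14 (SE). Among 18 cell cycle transcription factors edgeR called 0 and DESeq2 1 higher, beside 0.293% and 2.44% of all genes higher. By unadjusted edgeR p under 0.05, 5 were higher, beside 8.1% of all genes, and the median log2 fold change was 0.21. The gene called by DESeq2 was E2f2, an activator E2F, at 30.4, 25.5 and 33.8 CPM in vehicle and at 120.1, 57.9 and 66.4 CPM in vincristine. Its log2 fold change was 1.44 ± 0.28 (SE; edgeR adjusted p = 0.131, DESeq2 adjusted p = 0.000212), and 1.06 ± 0.13 without vincristine replicate 1 (edgeR adjusted p = 0.00898). The E2F partners Tfdp1 and Tfdp2 had 0.53 ± 0.13 and 0.54 ± 0.19 (SE). E2f1 was at 15.6 ± 0.578 and 13.3 ± 1.64 CPM (SD, n = 3 each), which is -0.22 ± 0.13 on the log2 scale (SE). Foxm1, the late activator of mitotic genes, had 0.95 ± 0.37, the repressor E2f8 had 0.98 ± 0.38 and Mybl2 (B-MYB) 0.83 ± 0.44; these did not pass by either tool. Exons of Cdkn1a, Rb1, Tk1 and E2f8 overlap genes on the other strand, and those of Foxm1 overlap genes on its own strand.

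The G2/M genes had a higher summed level in each vincristine library than in any vehicle library. So did 4 marker lists: erythroid, neutrophil precursor, mature neutrophil, and monocyte and macrophage. The megakaryocyte sums overlapped between groups, and the B-lineage sums were lower in vincristine, as given below. The G2/M genes summed to 372, 259 and 457 CPM in vehicle replicates 1, 2 and 3 and to 1370.5, 559 and 611 CPM in vincristine replicates 1, 2 and 3. Of 15 erythroid markers tested, 15 were above 0 with a median log2 fold change of 1.62. EdgeR called 0 and DESeq2 called 12 higher, beside 0.293% and 2.44% of all genes. The unadjusted edgeR p was under 0.05 for 15, all higher, beside 8.1% of all genes. Erythroid markers summed to 4701, 3764 and 3012 CPM in vehicle and to 14465, 5748 and 6569 CPM in vincristine. By this sum vehicle replicate 3 was lowest for them and highest for the G2/M genes. The median erythroid gene, as log2 CPM against its vehicle mean, was at -0.01, -0.27 and 0.15 in vehicle replicates 1, 2 and 3. By that value vehicle replicate 3 was highest for the erythroid and for the G2/M genes. Slc4a1, the red cell anion exchanger, was at 152, 124 and 193 CPM in vehicle and at 900.4, 425 and 486 CPM in vincristine, and passed in edgeR without vincristine replicate 1 (adjusted p = 0.00780). Trim10, another erythroid gene, had a log2 fold change of 2.14 ± 0.33 (SE). The 11 neutrophil precursor genes summed to 586, 349.8 and 472 CPM in vehicle and 1099 to 3109 CPM in vincristine, with Ltf at 2.18 ± 0.42 (log2, SE). The 9 mature neutrophil genes summed to 1013, 574 and 716 CPM in vehicle and 1785 to 5561 CPM in vincristine, with Csf3r at 1.81 ± 0.33. The 13 monocyte and macrophage genes summed to 922, 699 and 807 CPM in vehicle and 1213 to 2381 CPM in vincristine, with Itgam at 1.63 ± 0.33. Ltf and Itgam had the highest fold changes of their lists. The neutrophil precursor, mature neutrophil and monocyte lists had median log2 fold changes of 1.52, 2.02 and 0.68. Above 0 were 10 of 11, 9 of 9 and 13 of 13 genes. EdgeR called 0 in each, and DESeq2 called 5, 9 and 7 higher, beside 2.44% of all genes. Within vehicle these myeloid lists were highest in replicate 1. All 4 lists were highest in vincristine replicate 1, and none of their markers was at 0 in all libraries. Their part in the G2/M difference was not tested.

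Markers of the B lineage went the other way. Of 13 listed, 10 were tested, and edgeR called 6 of these lower, beside 0.0658% of all genes. The log2 fold changes ran from -4.65 to -0.31, with a median of -3.28. Ms4a1 (CD20) fell from 12.5 ± 4.99 to 0.512 ± 0.257 CPM and Cd79a from 5.25 ± 1.57 to 0.435 ± 0.161 CPM (SD, n = 3 each; edgeR adjusted p = 0.0158 and 0.0183). With a library left out, these edgeR adjusted p ran from 0.00525 to 0.144 for Ms4a1 and from 0.00790 to 0.152 for Cd79a, and both passed only without vincristine replicate 1. The list summed to 195 to 249.7 CPM in vehicle and 97.4 to 156 CPM in vincristine. This sum covers all 13 listed genes, and its fall was smaller than that of the median tested gene. Satellite glia and Schwann cells, which can divide in the ganglion, had smaller values. Their median log2 fold changes were 0.15 over 8 satellite glia markers and 0.03 over 8 Schwann cell markers. EdgeR and DESeq2 called 0 of either list, beside 0.293% and 2.44% of all genes higher and 0.0658% and 0.402% lower. The unadjusted edgeR p was under 0.05 for 0 of them, beside 8.1% of all genes higher and 3.27% lower. The 14 sensory neuron markers had a median of -0.45, and -0.16 without vincristine replicate 1. What part any of these cell types had in the phase balance was not tested.

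**Figure D5:**
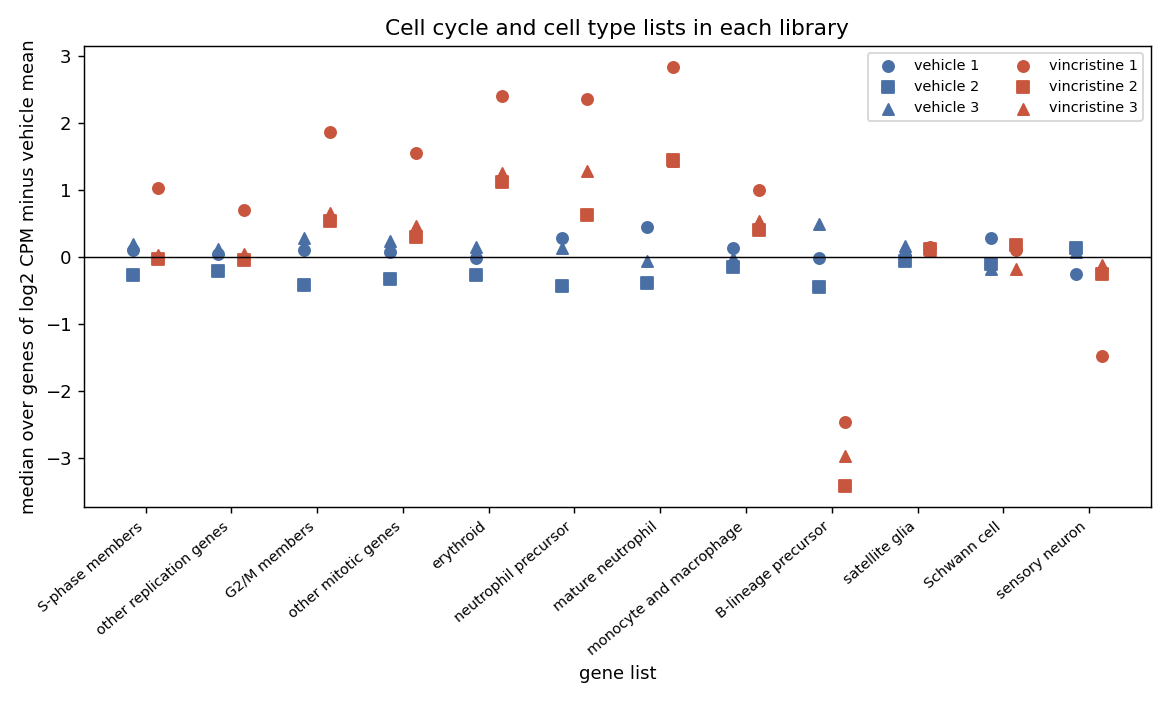
Median over the tested genes of a list of log2 CPM minus the vehicle mean (vertical axis) in each library, vehicle in blue and vincristine in red, with marker shapes for replicates 1, 2 and 3. Replication genes separate only in vincristine replicate 1, and mitotic, erythroid and myeloid genes are higher in each vincristine library. Genes of the B-lineage list, labelled B-lineage precursor, are lower in each.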

How the data were processed

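RNA of whole ganglia was measured in 6 pooled samples by stranded total RNA sequencing with single-end reads of 75 nucleotides, per the labels and the series' design. The authors deposited raw counts of reads per gene symbol, 1 table per sample, without normalization; STAR, SAMtools and HTSeq and the build mm10 (GRCm38) are named in the submitters' processing notes. Their versions, the annotation and the strand setting were not stated in any source used here. The counter's summary lines were left out of library sizes. Of the tallied alignments, those assigned to no feature were 24.8% in vincristine replicate 1 and 14.8% to 17.0% in the other libraries. Those not unique were 31.1% to 40.5% and those ambiguous 0.253% to 0.331%.

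All genes were fitted together with edgeR 4.0.16 in R 4.3.3: filterByExpr (minimum count 10) left 16706 genes, libraries were scaled by TMM, and glmQLFit and glmQLFTest (robust, treatment only, 4 residual degrees of freedom) gave two-sided p-values with Benjamini-Hochberg adjustment over all genes. The SE is the log2 fold change divided by the square root of F. CPM use TMM-scaled library sizes; RPKM divide by merged exon length in GENCODE M21 (GRCm38). Log2 CPM use a prior count of 2. Alternatives were DESeq2 1.42.0, limma-voom (limma 3.58.1), other scalings and filters, thinning to 12374331 reads, a replicate block and leaving out each library. Tested on data simulated for vincristine against vehicle (16558 genes, 50 changed at each size), edgeR recovered 3 at 1.5-fold, 30 at 2-fold, 41 at 3-fold and 47 at 4-fold, with 9 false calls.

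The members and lists were chosen with earlier results of these data known. The named genes are all members, up to 3 genes of each pathway list and 2 of each marker list with the smallest p, and Cdkn1a, Foxm1, Mybl2, E2f1 and E2f8. Replicates of a group differed by more than sampling noise (chi-square per degree of freedom 12.5 to 90.7), so none was counted as a copy.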

Additional observations from a re-analysis of the deposited data

How the results depend on the processing

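The G2/M median minus the S-phase median was 0.67 with all libraries, 0.53 to 0.80 with each library left out in turn, and 0.82 by summed CPM, and it was above 0 under every alternative run. With a library left out, the S-phase median ran from -0.01 to 0.61 and the G2/M median from 0.52 to 1.36, the lowest of both without vincristine replicate 1. Calls over all genes were 60 by edgeR, 551 by DESeq2, 99 without a count filter, 125 at an adjusted p under 0.1, 54 when thinned to the smallest library and 36 in a second such draw, added after the data were seen. With a library left out edgeR called 0 to 346 genes, namely 346, 6 and 18 without vincristine replicates 1, 2 and 3, and 0 without any 1 vehicle library. Members called were 0 by edgeR, 6 by DESeq2, and 0 to 1 with a library left out. DESeq2 without vincristine replicate 1, also added later, called 600 genes and 6 members.

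Deviations of same-numbered samples correlated at 0.43, 0.25 and -0.09, so the numbers were not taken to pair the samples. With the replicate number as a block edgeR called 261 genes and 1 member.

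Signs turned for 9 members. With a library left out, log2 fold changes ran from -0.048 to 0.61 for Mcm2, -0.015 to 0.67 for Mcm3, -0.15 to 0.30 for Mcm4, -0.14 to 0.55 for Mcm6, -0.23 to 0.73 for Cdc6, -0.038 to 0.29 for Gins2, -0.059 to 0.26 for Ccne1, -0.12 to 0.73 for Ccne2 and -0.26 to 0.18 for Mad2l1. By DESeq2 without vincristine replicate 1 these genes were at -0.056, -0.022, -0.16, -0.14, -0.23, -0.015, -0.067, -0.13 and -0.27, and Mad2l1 was at -0.0499 by limma-voom. The cause was not tested. Other scalings put the median of all genes between -0.0115 and 0.0127. Depth was lowest for Ttk, at 31 to 75 reads per library.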

Other observations

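Markers of other cells that ganglion pools can hold were also read. The 6 megakaryocyte genes summed to 41.3 to 67.1 CPM in vehicle and 57.6 to 203 CPM in vincristine, and the T and NK cell genes to 10.6 to 13.6 and 9.92 to 25.7 CPM. Endothelial and mural genes summed to 686 to 778 and 608 to 777 CPM and fibroblast genes to 5258 to 9277 and 4195 to 8768 CPM. EdgeR called 0 genes of these 4 lists and DESeq2 called 1 higher, the platelet gene Gp1bb, beside 0.293% and 2.44% of all genes higher. Gp1bb overlaps exons of Sept5 and Gm49601 on its own strand, and the part of this overlap in the call was not tested. The unadjusted edgeR p was under 0.05 for 3 megakaryocyte genes and 1 T or NK cell gene, all higher, beside 8.1% of all genes. The 6 skeletal muscle genes ran from 52.9 to 402 CPM in vehicle and from 151 to 787 CPM in vincristine, with the highest value in vincristine replicate 2.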
